A study of Mus musculus with 6 samples.

Results

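The cytosines described here were methylated in round spermatids and nearly unmethylated in every haploid embryonic stem cell line of the study. They are the positions of chromosomes 1 to 19 that had at least 10 reads in all 6 libraries, a methylation level (methylated reads over all reads) of at least 90% in round spermatids, and a level under 10% in each of 5 lines. They were thus selected on the measured levels of all 6 libraries. The rule was met by 6020 cytosines, 2.64% of the 227992 that could be judged and 13.3% of the 45296 at 90% or more in round spermatids. They are called erased cytosines below, as a name for that contrast between libraries, since the loss itself was not followed in time. The 45296 are called spermatid-methylated cytosines, and the 39276 of them that were not erased are the others.

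The levels come from reduced representation bisulfite sequencing (RRBS) of C57BL/6 mouse material. RRBS reads cytosines near MspI sites, and bisulfite converts unmethylated cytosines so that methylated and unmethylated reads can be counted. The 3 lines labelled as double knockouts (DKO replicates 1, 2 and 3, at passages 32, 31 and 29) carry deletions of the H19 DMR and the IG-DMR, imprinting control regions that are methylated on the paternal chromosome. The 2 wild-type lines (WT replicates 1 and 2) were at passages 31 and 18. All 5 are androgenetic haploid embryonic stem cells (AG-haESCs), derived from androgenetic blastocysts and cultured over feeders in an ES medium containing 2i, and the reference was a single library of round spermatids from testis. By their titles, DKO replicate 2 and WT replicate 1 share the line name OG3, and DKO replicate 3 and WT replicate 2 share AGH-2. DKO replicate 1 is AGH-4. Nothing in the labels says whether lines of 1 name came from separate embryos, so p-values measure the spread between these samples.

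As background, methylation of mammalian DNA sits mostly on the C of CpG and is kept through cell division by Dnmt1 with its partner Uhrf1, set anew by Dnmt3a, Dnmt3b and their cofactor Dnmt3l, and oxidised toward removal by the Tet enzymes. The male germ line carries a densely methylated genome outside CpG islands. Most of that methylation is lost from the paternal chromosomes in the early embryo, while imprinting control regions escape. Mouse embryonic stem cells grown with 2i, a pair of kinase inhibitors, are known for low methylation across the genome.

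The erased cytosines that lay just before a gene's start can be shown in their sequence. In the RefSeq promoter table of GRCm38.p6, which covers 250 bases before to 50 after each start, 53 of the 166 windows with a spermatid-methylated cytosine held an erased cytosine, 31.9%. Windows with at least 3 were those of Plch2, an enzyme of the phospholipase C family, and Gm35290, a predicted gene that overlaps Anks1. They are printed with the windows of Gpx4, a glutathione peroxidase that protects membrane lipids, and Frs2, the adaptor that links FGF receptors to the MAPK cascade. Gpx4 was taken from the windows with 2 erased cytosines and Frs2 from those with 1, after their values were seen, because of what the genes do. Each line gives the 250 bases before the start, 5′ to 3′ on the gene's strand, with the CpGs that hold an erased cytosine in capitals.
Plch2 (minus strand, chr4:155019429-155019678): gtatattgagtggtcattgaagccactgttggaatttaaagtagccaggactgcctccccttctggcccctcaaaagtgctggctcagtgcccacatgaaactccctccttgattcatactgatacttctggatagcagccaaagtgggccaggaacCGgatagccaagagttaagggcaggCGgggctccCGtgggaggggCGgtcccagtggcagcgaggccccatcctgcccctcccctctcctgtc
Gm35290 (minus strand, chr17:28007281-28007530): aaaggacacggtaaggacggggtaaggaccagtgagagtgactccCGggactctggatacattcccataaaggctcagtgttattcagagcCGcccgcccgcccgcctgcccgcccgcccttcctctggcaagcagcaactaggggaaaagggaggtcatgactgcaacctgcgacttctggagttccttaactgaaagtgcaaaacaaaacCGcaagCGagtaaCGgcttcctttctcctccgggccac
Gpx4 (plus strand, chr10:80046916-80047165): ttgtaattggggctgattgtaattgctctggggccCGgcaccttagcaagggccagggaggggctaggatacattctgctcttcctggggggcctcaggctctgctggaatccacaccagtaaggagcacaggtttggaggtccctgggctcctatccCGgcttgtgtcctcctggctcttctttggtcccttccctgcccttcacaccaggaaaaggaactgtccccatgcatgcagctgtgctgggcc
Frs2 (minus strand, chr10:117148475-117148724): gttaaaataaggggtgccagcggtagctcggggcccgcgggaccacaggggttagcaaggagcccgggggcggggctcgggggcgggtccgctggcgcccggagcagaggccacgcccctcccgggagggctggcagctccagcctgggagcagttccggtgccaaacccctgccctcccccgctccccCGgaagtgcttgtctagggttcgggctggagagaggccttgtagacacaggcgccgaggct

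The 4 cytosines of the Plch2 window lay 48, 59, 68 and 93 bp before the start. They had 0, 1, 0 and 0 methylated reads in DKO replicate 1 and 0, 0, 0 and 2 in DKO replicate 2, and no methylated read in the other lines, against 96 of 96 reads methylated at each in round spermatids. Depth in the lines was between 117 and 665 reads per cytosine, and the highest line level was 1.01%, in DKO replicate 2. The 5 of Gm35290, at 24, 31, 37, 159 and 205 bp before the start, rested on fewer reads, down to 11 in WT replicate 2 at the outer pair, and 3 of their 25 line values were above 0, at 1.52% in DKO replicate 1, 1.31% in DKO replicate 2 and 5.56% in WT replicate 1. In Gpx4 the cytosines lay 215 and 91 bp before the start. The outer had 2 methylated reads of 541 in DKO replicate 2 and none in the other lines, against 903 of 907 in round spermatids. The inner had 3 of 780, 1 of 412 and 1 of 505 in DKO replicates 2 and 3 and WT replicate 2 and none in DKO replicate 1 and WT replicate 1, against 274 of 275. In Frs2 the cytosine 61 bp before the start had 2 methylated reads of 278 in DKO replicate 2 and none in the other lines, against 392 of 393 in round spermatids. These 4 windows differ in base composition, with 6, 18, 3 and 24 CpGs in the 300 bases of Plch2, Gm35290, Gpx4 and Frs2. The median number of CpGs per window was 7 where an erased cytosine was present, 6 where any spermatid-methylated cytosine was, and 7 over all 31396 windows. The 63 erased cytosines inside these windows were all cytosines of a CpG, 32 on the plus and 31 on the minus strand, as were the 116301 positions seen there in any library. Sequence outside these windows was not used here, so the context of the remaining positions was not examined. Chromosome 18 was not used for gene starts.

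Summed read counts over cytosines were between 197728785 and 255726544 in the lines and 293920118 in round spermatids. The labels give a paternal origin, and maternally methylated imprinting regions should be unmethylated on paternal chromosomes. Cytosines within 1 kb of the start of genes at such regions were therefore read. The 162 cytosines at 10 measured genes averaged 0.0255%, 0.373% and 0.208% in DKO replicates 1, 2 and 3 and 0.225% and 0.254% in WT replicates 1 and 2, against 0.0808% in round spermatids. Whether each cytosine lies inside the imprinted region was not examined, and no diploid library was measured. Paternal origin and DNA of feeder cells were thus not tested by these values.

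At the erased cytosines most line values were exactly 0. Mean levels were 0.397%, 0.868% and 0.323% in DKO replicates 1, 2 and 3 and 0.825% and 0.382% in WT replicates 1 and 2, against 99.6% in round spermatids. DKO replicate 2 and WT replicate 1, the lines named OG3, had the higher residual levels. These values were the ones that chose the cytosines and are given as a description. No methylated read was present at 78.2%, 65.3% and 82.5% of the erased cytosines in DKO replicates 1, 2 and 3, and at 72.5% and 78.5% in WT replicates 1 and 2. There were 2012 (33.4%) without a methylated read in any line, at a median of 1011.5 reads summed over the lines, and 1616 of these were also methylated in every round spermatid read. The highest line level at an erased cytosine had a median of 0.394%.

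Depth decides how firmly single positions are placed. A count of 0 allows a level of up to 30% at 10 reads and up to 4.35% at the median lowest depth of the erased cytosines, counting 3 reads as the limit. For 3980 of the 6020 the exact 95% (Clopper-Pearson) interval lay under 10% in every line, and for 3491 (58.0%) it also lay above 90% in round spermatids. Such intervals cover counting error only, since amplified reads carry no molecular identifiers and may be copies of 1 molecule. The erased cytosines were not the deeper ones. Their share among spermatid-methylated cytosines was 14.5% where the lowest of the 6 depths was 10 to 19 reads (1010 of 6956) and 12.0% where it was 200 or more (1250 of 10405).

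Few values sat at the thresholds. There were 248 erased cytosines whose highest line level was between 9% and 10%, beside 312 spermatid-methylated cytosines left out between 10% and 11%. In round spermatids 50 had a level between 90% and 91%, beside 29 left out between 89% and 90% that met the rule in the lines. The nearest values on either side of the line threshold were 9.992% and 10%, and those around the round spermatid threshold were 90% and 89.98%.

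Erasure in every line was the low end of a broad range. Of the 45296 spermatid-methylated cytosines, 3733 (8.24%) were under 10% in no line, 7274 (16.1%) in 1 line, 9605 (21.2%) in 2, 10033 (22.1%) in 3, 8631 (19.1%) in 4 and 6020 in 5. Single lines were under 10% at 58.2%, 42.0% and 62.9% of them in DKO replicates 1, 2 and 3 and at 41.6% and 63.0% in WT replicates 1 and 2. At the 39276 others, which include the 8631 missed by a single line, mean levels were 20.2%, 28.0% and 19.9% in DKO replicates 1, 2 and 3 and 30.8% and 16.3% in WT replicates 1 and 2, against 99.6% in round spermatids. The level in round spermatids was thus the same in both sets to the digits given, and 72.4% of the erased and 71.9% of the others were methylated in every round spermatid read.

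**Figure D1:**
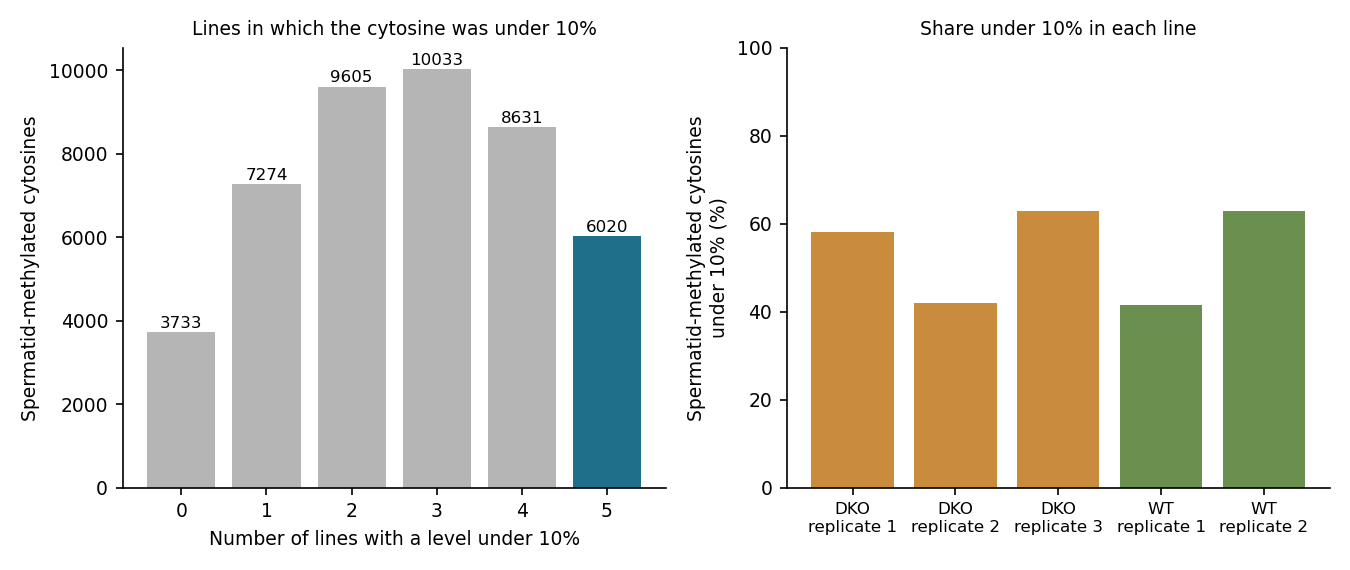
Left, number of spermatid-methylated cytosines (y axis) by the number of lines in which their level was under 10% (x axis), where the last bar holds the 6020 erased cytosines. Right, percentage of the 45296 under 10% in each line, between 41.6% in WT replicate 1 and 63.0% in WT replicate 2, with no error bars because each line is a single library.

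The line that kept a cytosine out was most often 1 of the pair named OG3. Among the 8631 cytosines under 10% in exactly 4 lines, WT replicate 1 was the exception at 2871 and DKO replicate 2 at 2555. DKO replicate 1, DKO replicate 3 and WT replicate 2 were the exception at 1149, 1097 and 959. Median levels in the exceptional line were 30.7%, 28.4% and 36.5% for DKO replicates 1, 2 and 3 and 32.4% and 26.0% for WT replicates 1 and 2, so most near misses were well above the threshold. Without WT replicate 1 the rule gave 8891 cytosines, and without DKO replicate 2 it gave 8575.

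Erased cytosines lay inside genes as often as the others did. They were within an annotated gene at 4246 of 6020 positions (70.5%), against 70.6% of the others, and 78.7% of all measured cytosines were in genes. In protein-coding genes the shares were 63.4% of erased cytosines, 63.9% of the others and 72.9% of all measured cytosines. The gene table gives each gene's extent only, so exons, introns and untranslated regions were not told apart. Over chromosomes, the erased share of spermatid-methylated cytosines was between 11.2% on chromosome 13 (95% Wilson interval 9.83 to 12.8) and 14.9% on chromosome 10 (13.5 to 16.4). On the X chromosome, outside the rule, 68 of 723 spermatid-methylated cytosines met the same limits in all lines (9.41%).

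Near gene starts the erased share was higher. Within 2 kb of the nearest start 506 of 2763 spermatid-methylated cytosines were erased (18.3%), against 5347 of 41254 beyond it (13.0%). The gap was as large among cytosines with at least 100 reads in every library, at 17.6% of 1071 and 12.0% of 17672. The share was 18.7% up to 250 bp, 14% from there to 500 bp, 19.2% between 1000 and 2000 bp and 11.7% beyond 100000 bp. On the gene side of the start, within 2 kb, it was 19.7% (324 of 1648), and on the upstream side 16.3% (182 of 1115). Median distance to a start was 18004 bp for erased cytosines and 20500 bp for the others, while that of all measured cytosines was 1390 bp. Spermatid methylation itself thus sat far from starts. Within 1 kb of a start lay 3.74% of the erased cytosines and 2.75% of the others, compared with 47.7% of all measured ones. Cytosines share fragments and reads and are not replicates, so these shares carry no test.

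Along genes of at least 10 kb the erased share was higher in the 5′ part. Over 5581 such genes each cut into 10 equal parts, it was 17.4% and 17.6% in parts 1 and 2, between 12.8% and 14.9% in parts 3 to 7, and 11%, 11.9% and 11% in parts 8, 9 and 10. The pattern near starts was therefore not limited to the promoter windows.

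**Figure D2:**
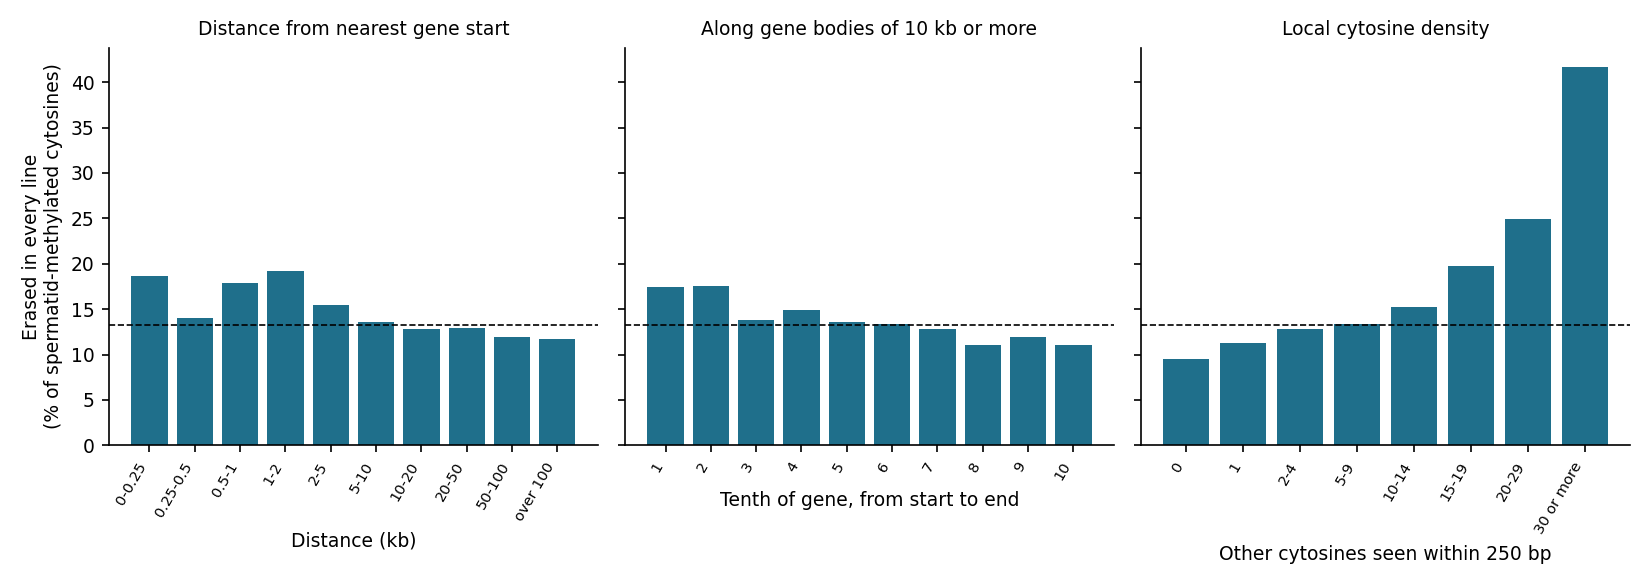
Erased cytosines as a percentage of spermatid-methylated cytosines (y axis) by distance to the nearest gene start, by 10 equal parts of the gene, and by number of other cytosines seen within 250 bp (x axes). The dashed line is the share over all spermatid-methylated cytosines, 13.3%. The share was 18.7% within 250 bp of a start and 11.7% beyond 100 kb, and 41.7% among the 36 cytosines with 30 or more neighbours seen.

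Local density of measured cytosines was low around erased cytosines, and as low around the others. The median number of other cytosines measured in all libraries within 250 bp was 2 for erased cytosines and 2 for the others, compared with 7 for all measured cytosines. Counting every cytosine seen in any library, the medians were 5, 5 and 15. No other measured cytosine was in reach of 21.3% of the erased cytosines and 21% of the others, compared with 6.43% of all measured cytosines. Within the spermatid-methylated set, the erased share was nearly level over the number of cytosines measured in all libraries within 250 bp, at 13.5% with none, 13.2% with 1, 13.3% with 2, 13.2% with 3 or 4 and 12.6% with 5 to 9. It was higher in the few places with more, at 19.8% with 10 to 14 (42 of 212) and 46.3% with 15 or more (25 of 54). Counted over cytosines seen in any library, the share was higher with each larger number. It was 9.46% with none within 250 bp (118 of 1248), 12.8% with 2 to 4, 15.2% with 10 to 14, 19.7% with 15 to 19 (177 of 897) and 24.9% with 20 to 29 (58 of 233). With 30 or more it was 41.7%, on 15 of 36 cytosines. The edge of unmethylated sequence gave a like difference. A cytosine under 10% in round spermatids lay within 250 bp of 8.90% of the erased cytosines (536) and of 6.14% of the others (2412). Among spermatid-methylated cytosines beside such sequence 18.2% were erased (536 of 2948), against 12.9% of those without it (5484 of 42348).

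Most erased cytosines stood alone, and those that did not were in short groups. With gaps of at most 100 bp they formed 4776 runs. Of the 6020, 3860 (64.1%) had no other erased cytosine within reach, and 2160 lay in 916 runs of 2 or more with a median span of 26 bp. Runs of 2 numbered 678, runs of 3 numbered 171, runs of 4 numbered 49 and runs of 5 numbered 14, with 3 of 6 and 1 of 7. Erasure was often shared by neighbours without covering whole groups. Of 4693 runs of at least 3 spermatid-methylated cytosines, built the same way, 149 (3.17%) were erased at every cytosine, 1231 (26.2%) at some and 3313 (70.6%) at none.

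Near spermatid-methylated neighbours of an erased cytosine were more often erased than distant ones. Among spermatid-methylated neighbours 2 to 10 bp from an erased cytosine 46.8% were erased (752 of 1608), against 7.35% of those at that distance from one of the others. At 51 to 100 bp the shares were 32.5% and 11.5%, between 500 and 1000 bp 23.9% and 11.9%, and between 5000 and 20000 bp 16.4% and 13.7%. Both values were thus near the overall 13.3% at the longest distance read. Positions 1 bp apart, as on the opposite strands of a CpG, were few, with 12 of 33 neighbours of erased cytosines erased (36.4%), against 8.05% of neighbours of the others. Within a read length the same molecules contribute to both positions, and how much of the likeness at short distance comes from shared reads was not tested.

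**Figure D3:**
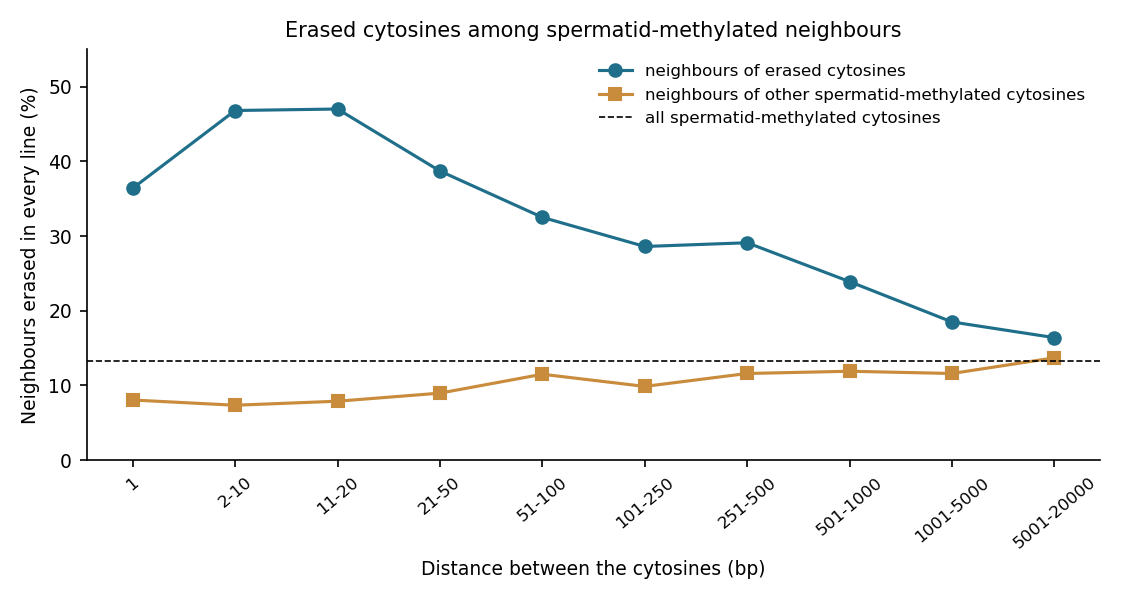
Percentage of spermatid-methylated neighbours that were erased in every line (y axis) by distance in bp (x axis), around erased cytosines (circles) and around the others (squares), with the overall share of 13.3% dashed. Around erased cytosines the share was 47.0% at 11 to 20 bp and 16.4% between 5000 and 20000 bp.

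The run with most erased cytosines lay in Adat3, a subunit of the tRNA adenosine deaminase that makes inosine at the wobble position, and at the same time in the overlapping Scamp4, a carrier membrane protein. Its 7 cytosines spanned 103 bp on chromosome 10, at 80606400 to 80606502 of mm10. Summed over them, 3 of 5418, 2 of 4403 and 0 of 6430 reads were methylated in DKO replicates 1, 2 and 3 and 0 of 5996 and 1 of 8844 in WT replicates 1 and 2, against 2221 of 2222 in round spermatids. These were the whole of the spermatid-methylated cytosines of Adat3. In round spermatids 4 of the 7 had 13 reads each, and at a minimum of 20 reads 3 remained.

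The runs of 6 were in Gm32438, a long noncoding RNA gene, in Med9, a subunit of the Mediator complex, and in Plec, which encodes the cytoskeletal linker plectin. In Plec (chromosome 15, 76195522 to 76195646) 0 of 3007, 0 of 5116 and 1 of 2761 reads were methylated in DKO replicates 1, 2 and 3 and 1 of 3218 and 1 of 4633 in WT replicates 1 and 2, against 5367 of 5372 in round spermatids. In Gm32438 (chromosome 10, 67698155 to 67698289) DKO replicate 2 stood above the other lines, with 78 of 2526 reads methylated, while DKO replicates 1 and 3 had 1 of 2709 and 0 of 5166, WT replicates 1 and 2 had 3 of 1037 and 0 of 1858, and round spermatids had 757 of 758. The Med9 run (chromosome 11, 59953036 to 59953185) was not complete, as 11 spermatid-methylated cytosines lay in it or within 100 bp.

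Runs of 5 among the 10 listed lay in Ecm1, an extracellular matrix protein gene, in the noncoding Gm36603, in Mboat7, a lysophospholipid acyltransferase, in Mrps12, a protein of the mitochondrial ribosome, in the zinc finger gene Zfp553, and 221 bp from Klrb1f, a lectin-like receptor of natural killer cells. Mboat7 (chromosome 7, 3685772 to 3685821) had 1 methylated read over all lines, of 3712 in WT replicate 2, while DKO replicates 1, 2 and 3 had none of 728, 1446 and 1738 and WT replicate 1 none of 234, against 4409 of 4409 in round spermatids. Beside Klrb1f (chromosome 6, 129059945 to 129060050) DKO replicate 2 had 168 methylated reads of 8306 and the other lines between 0 and 9, against 4025 of 4035 in round spermatids. Of the 10 runs, 9 overlapped an annotated gene, beside 70.5% of all erased cytosines and 70.6% of the others in genes. The 10 runs are too few to tell these shares apart.

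Levels next to erased cytosines were examined at positions that the rule had not used. Within 100 bp of an erased cytosine there were 7682 cytosines with under 10 reads in at least 1 library. Each library was averaged over those with 10 or more reads in it. They averaged 10.5%, 13.9% and 10.3% in DKO replicates 1, 2 and 3 and 16.8% and 8.06% in WT replicates 1 and 2, against 86.4% in round spermatids. Such cytosines within 100 bp of one of the others, and of no erased cytosine, numbered 28192 and averaged 18.4%, 25.7% and 18.1% in DKO replicates 1, 2 and 3 and 27.7% and 14.3% in WT replicates 1 and 2, against 90.5% in round spermatids. Lines that were higher in 1 set were higher in the other, and the neighbours of erased cytosines were the lower in each line.

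Over lines, neighbours of erased cytosines had 11.9 ± 3.41% and neighbours of the others 20.8 ± 5.63% (SD, n = 5). The difference was -8.95 ± 2.36 percentage points, lower in 5 of 5 lines, with values between -11.9 and -6.25. The two-sided exact sign-flip permutation test over lines gave p = 0.0625, the smallest that 5 lines allow, and 0.188 after Benjamini-Hochberg adjustment over the 3 tests made, so it could not pass 0.05. The SD and this test count the 5 lines separately, though some share a line name and may not be independent. Restricted to neighbours at 90% or more in round spermatids, the means were 13.0 ± 4.33% and 23.3 ± 6.16% (SD, n = 5 lines; 1576 and 5561 cytosines), a difference of -10.4 points, lower in 5 of 5 lines. Between 250 and 1000 bp, where a shared read is less likely, the means were 12.6 ± 3.69% and 18.7 ± 5.79% (SD, n = 5), a difference of -6.06 ± 2.25 points, lower in 5 of 5 lines. Round spermatids were themselves lower there, at 60.1% beside erased cytosines and 71.6% beside the others. With both limits together the means were 17.2 ± 6.45% and 22.0 ± 6.02% (SD, n = 5), a difference of -4.81 points, again lower in 5 of 5 lines. Erased cytosines and their neighbours come from the same libraries, so these values are no independent replicate of the rule. The sets were split by levels in these same lines, and near neighbours can share reads with them. A lower level beside erased cytosines was thus favoured beforehand, and no conclusion is drawn from the p-value.

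**Figure D4:**
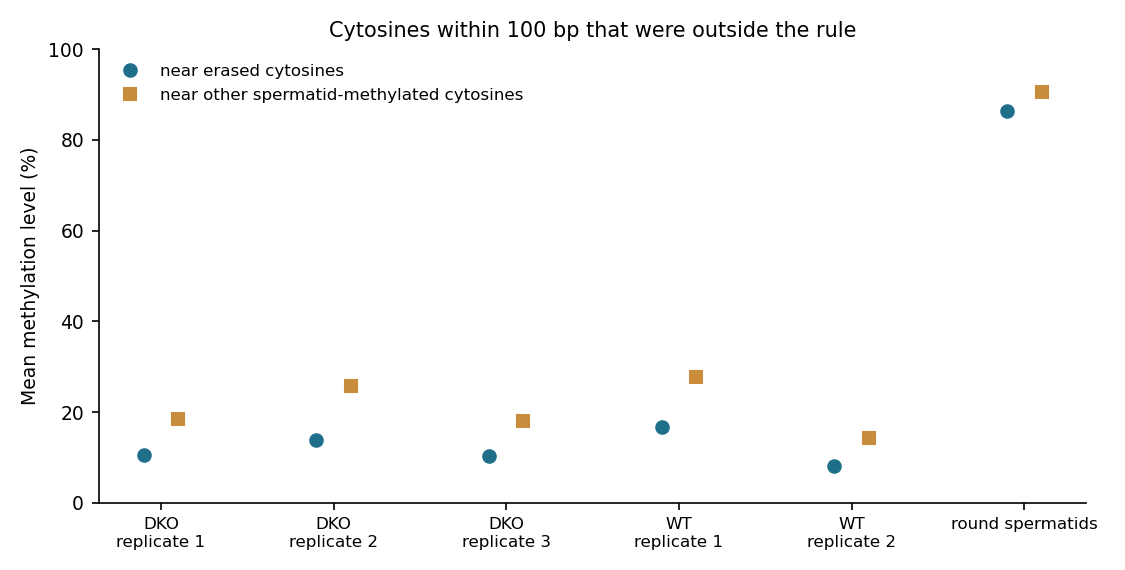
Mean methylation level in percent (y axis) in each library (x axis) at cytosines outside the rule that lay within 100 bp of an erased cytosine (circles) or of one of the others (squares), each point being 1 library. In every line the circle is lower than the square, as at 8.06% and 14.3% in WT replicate 2.

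DKO and WT lines were compared at the same positions. DKO lines had 11.6 ± 1.99% (SD, n = 3) and WT lines 12.4 ± 6.15% (SD, n = 2). The difference of -0.857 points was smaller than the spread between lines, and the 3 DKO lines lay within the range of the 2 WT lines, 8.06% to 16.8% (two-sided exact permutation test over libraries, p = 0.8, adjusted 0.8, where 3 against 2 cannot go below 0.1). It reversed to 3.49 points without WT replicate 1. The lines minus round spermatids differed by -74.5 points on average, in a design of 5 against 1 that cannot go below the p = 0.167 found by exact permutation (adjusted 0.25). The rule chose places high in round spermatids and low in the lines, so a difference of this sign was favoured beforehand. Each library was averaged over its own part of the 7682 positions, 2854 to 3503 in the lines and 1877 in round spermatids. The -74.5 points are thus not a contrast at the same cytosines, and pooled reads gave 77.8% in round spermatids.

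Counted over genes with 1 kb on either side, 2903 of the 9399 genes with a spermatid-methylated cytosine held an erased one (30.9%). At least 2 were held by 1027 genes, at least 3 by 449, at least 5 by 119 and at least 10 by 6. The genes with most were long. The 25 named genes at the top had a median length of 114830 bp, against 28681 bp over genes with a spermatid-methylated cytosine, and 16 further named genes tied with the last of them at 7. Their erased share was 13.9% to 100%, while the share over all spermatid-methylated cytosines was 13.3%. The 25 were ranked by erased count, with ties placed by erased share, so a high share was favoured by the choice.

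Gse1, which encodes a coiled-coil protein, had the highest count, with 18 erased of 101 spermatid-methylated cytosines between 120323255 and 120574437 of chromosome 8. The 18 averaged 0.224%, 1.04% and 0.0497% in DKO replicates 1, 2 and 3 and 0.905% and 0.887% in WT replicates 1 and 2, against 99.9% in round spermatids. All 101 averaged 14.9%, 19.6% and 14.9% in the DKO lines and 23.7% and 11.2% in the WT lines, against 99.7% in round spermatids, so the remaining cytosines of the gene carried methylation in the lines. Septin9, a cytoskeletal GTP-binding protein, had 13 of 37. Wwox, an oxidoreductase gene at a fragile site, had 10 of 72, close to the overall share.

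Ccnd3, which encodes cyclin D3 of the G1 phase, had most of its spermatid-methylated cytosines erased. It held 11 of 15 spermatid-methylated cytosines (73.3%) between 47521704 and 47569857 of chromosome 17. All 15 averaged 4.69%, 2.04% and 0.114% in DKO replicates 1, 2 and 3 and 3.96% and 6.02% in WT replicates 1 and 2, against 99.9% in round spermatids. Tbc1d16, an activator of Rab GTPase hydrolysis, had 7 of 10, and Mapt, the microtubule-binding protein tau, 7 of 11. The 10 of Tbc1d16 averaged 0%, 11.8% and 0.0167% in DKO replicates 1, 2 and 3 and 10.8% and 0.858% in WT replicates 1 and 2, against 99.6% in round spermatids. DKO replicate 2 and WT replicate 1 thus held most of the methylation left there.

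Transport and membrane genes among the 25 were Atp9a, a P4-type ATPase (10 of 26), Abcc4, an efflux pump (9 of 22), Slc4a8, a sodium-driven bicarbonate exchanger (9 of 21), and Micall1 of recycling endosomes (10 of 25). Regulators of transcription were Zmynd8, a reader of histone marks (9 of 23), and the homeobox factor Cux2 (9 of 55). Kinases were Taok3 (9 of 27) and Cit, which acts in cytokinesis (8 of 36). Matrix and surface proteins were Hspg2, the proteoglycan perlecan (9 of 58), Col13a1, a transmembrane collagen (8 of 23), and Scube1, a secreted and surface protein (8 of 26). The polarity gene Llgl2 had 8 of 22, the ciliary gene Nphp4 9 of 51, Nav2 8 of 41, Rusc2 7 of 13 and Anks1 8 of 21, of which 6 are shared with Gm35290. Mean levels at the erased cytosines of these 25 genes were at most 2.2% in any line, against at least 99% in round spermatids.

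Genes of the pluripotency network are expressed in embryonic stem cells and silent in most other cells. Of 20 listed, 15 were measured, 7 had a spermatid-methylated cytosine and 5 had an erased one. That is 71.4% of the 7, against 30.9% over all genes with a spermatid-methylated cytosine. A gene with more such cytosines can more easily hold an erased one, and the 30.9% is not adjusted for their number. Of the 25 spermatid-methylated cytosines of the 7 genes 11 were erased (44.0%), and 13.3% over all. The 25 averaged 5.94%, 12.8% and 10.4% in DKO replicates 1, 2 and 3 and 15.7% and 5.94% in WT replicates 1 and 2, against 99.4% in round spermatids. That is 10.2 ± 4.28% (SD, n = 5 lines), where all spermatid-methylated cytosines had 20.1 ± 5.32%, and each line was lower at the list than over all. A low mean was not particular to this list. Innate immunity genes averaged 8.35 ± 4.47%, housekeeping genes 12.8 ± 10.8% and fibroblast genes 13.3 ± 3.06% (SD, n = 5 lines). Of the housekeeping cytosines 4 of 8 were erased. Placental genes, at 23.7 ± 7.77%, were not lower than all. The pluripotency list was chosen with earlier results known and its size is small, so no test was made.

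Esrrb, the orphan nuclear receptor of the naive state, had most of them, 5 of 13. At 86480940 of chromosome 12, 119823 bp into the gene, methylated reads were 0 of 1022, 1 of 1253 and 0 of 1180 in DKO replicates 1, 2 and 3 and 2 of 1745 and 0 of 2027 in WT replicates 1 and 2, against 738 of 738 in round spermatids. Another 3 lay together at 27751, 27764 and 27767 bp into the gene, on 14 to 122 reads in the lines and 49 in round spermatids. Pou5f1, which encodes Oct4, had 2 of 2, at 2018 and 2028 bp from its start. The first had levels of 0%, 9.19% and 0% in DKO replicates 1, 2 and 3 and 3.65% and 0% in WT replicates 1 and 2, against 20 of 20 reads methylated in round spermatids, so it was close to the threshold in DKO replicate 2 and rested on few round spermatid reads.

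Tfcp2l1, a transcription factor of the naive state, had 1 of 2, at 22710 bp into the gene, with no methylated read in 1008, 431 and 455 reads of DKO replicates 1, 2 and 3 and 423 and 309 reads of WT replicates 1 and 2, against 377 of 378 in round spermatids. Its other cytosine was not alike across lines, at 0%, 40.2% and 100% in DKO replicates 1, 2 and 3 and 50.6% and 0% in WT replicates 1 and 2. Sall4, a zinc finger factor, had 2 of 3, and the third missed the rule narrowly, at 10.8%, 13.2% and 10.6% in DKO replicates 1, 2 and 3 and 8.49% and 10.8% in WT replicates 1 and 2. Prdm14, which restrains de novo methylation in mouse stem cells, had 1 of 1, at 0.389%, 0% and 0.361% in DKO replicates 1, 2 and 3 and 0.178% and 0.276% in WT replicates 1 and 2, against 96.0% in round spermatids.

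**Figure D5:**
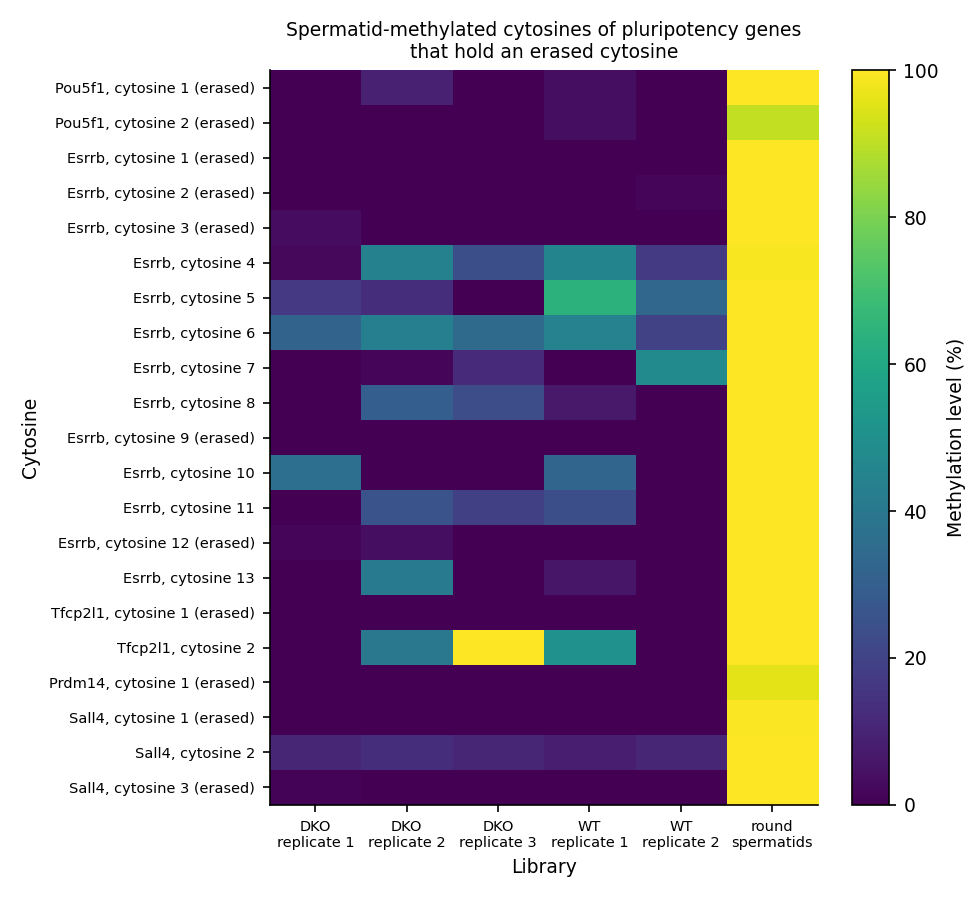
Methylation level in percent (colour) at each spermatid-methylated cytosine (rows) of the pluripotency genes that held an erased cytosine, in the 3 DKO lines, the 2 WT lines and round spermatids (columns). Esrrb, Sall4 and Tfcp2l1 hold erased and partly methylated cytosines side by side, such as the Tfcp2l1 position at 100% in DKO replicate 3 and 0% in DKO replicate 1.

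Genes of the DNA methylation machinery had 6 erased of 47 spermatid-methylated cytosines (12.8%), near the overall 13.3%. They lay in 5 of 12 genes (41.7%), against 30.9% over all genes with a spermatid-methylated cytosine, not adjusted for cytosines per gene. Tet2, an oxidase of 5-methylcytosine, had 2 of 2, Uhrf1 1 of 4, Dnmt3a 1 of 7, and Mbd3, of the NuRD complex, 1 of 1. Dnmt3l, the cofactor of de novo methylation, had 1 of 2 at 183 bp from its start, with 1 methylated read of 87 in WT replicate 2 and none in the other lines, against 62 of 62 in round spermatids.

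In the Wnt pathway, which keeps embryonic stem cells undifferentiated when it is switched on by the GSK3 inhibitor of 2i, 22 of 105 spermatid-methylated cytosines were erased (21%), in 7 of 16 genes. Over all features the shares were 13.3% of spermatid-methylated cytosines and 30.9% of genes with such a cytosine, also for the FGF and Notch counts. The 30.9% is not adjusted for the number of such cytosines per gene, so no excess is read from the gene counts. Of the 22 erased cytosines of the Wnt list, 14 were in Tcf7l1 and Tcf7l2, nuclear partners of beta-catenin, with 7 of 15 and 7 of 14. Tcf7l1 averaged 0.609%, 1.48% and 0.0434% at its erased cytosines in DKO replicates 1, 2 and 3 and 0% and 0.0277% in WT replicates 1 and 2, against 99.9% in round spermatids. Lef1 had 3 of 23, Lrp5, a coreceptor, 2 of 18, and Axin2, a feedback inhibitor, 1 of 8. The FGF and MAPK list, the cascade that the other inhibitor of 2i blocks, had 8 of 61 (13.1%, near the overall 13.3%), in 6 of 11 genes, among them Spred2 with 2 of 7 and Fgf2 with 1 of 5. Notch pathway genes had 17 of 91 (18.7%), in 6 of 11 genes. Among Notch genes, Notch2 and Maml3, a coactivator, had 5 of 14 and 5 of 25, and Notch4 had 4 of 5, with 3 of the 4 at 370, 674 and 712 bp from its start. Mean levels at all spermatid-methylated cytosines of the Wnt, FGF and Notch lists were 17.9 ± 4.34%, 18.5 ± 4.95% and 18.4 ± 4.06% (SD, n = 5 lines). These were close to the 20.1 ± 5.32% over all spermatid-methylated cytosines.

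Chromatin modifiers had 36 of 267 (13.5%). Jmjd1c, a member of a histone demethylase family, had 4 of 4, between 67103700 and 67103745 of chromosome 10, with no methylated read in any line (89 reads at each in DKO replicate 1, which allows up to 3.37%) against 384 of 384 at each in round spermatids. Jarid2, a partner of Polycomb repressive complex 2, had 4 of 7, and Prdm16 7 of 59. Calcium and potassium channels had 24 of 198 (12.1%), led by Cacna1c with 5 of 33. Both lists, with many cytosines, were near the overall share.

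Smaller lists varied more around the overall 13.3% of cytosines and 30.9% of genes, the latter not adjusted for cytosines per gene. Innate immunity genes had 9 of 33 (27.3%), in 7 of 9 genes, and averaged 8.35 ± 4.47% over lines at the 33, where all spermatid-methylated cytosines averaged 20.1 ± 5.32% (SD, n = 5). Among them Irf7, the interferon regulatory factor, was erased 298 bp from its start, with 2 methylated reads of 992 in DKO replicate 2 and none in the other lines, against 635 of 635 in round spermatids. Developmental regulators had 6 of 31 (19.4%), of which 4 of 5 in Gata2, a factor of blood and trophoblast lineages, on as few as 13 reads. Placental genes had 2 of 22 (9.09%), fibroblast genes typical of feeder cells 7 of 37 (18.9%), and housekeeping genes 4 of 8, of which 3 of 3 in Tubb5, a beta-tubulin.

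The germ line, imprinted and testis lists had few spermatid-methylated cytosines, and at most 1 in each list was erased. Listed genes of the early germ line had 0 of 4, all in 1 gene. Listed imprinted genes had 0 of 13 and genes of somatic testis cells 0 of 11. The imprinted list is not complete, as Kcnq1, of an imprinted domain, was counted with the channels and had 2 of 10. Spermatid genes had 1 of 19 (5.26%), in Spata25, also a small count. Mean levels in the lines were 23.9 ± 21.3% for the early germ line list and 21.5 ± 7.72% for the imprinted list. They were 17.2 ± 12.3% for somatic testis genes and 18.4 ± 13.3% for spermatid genes, against 20.1 ± 5.32% over all (SD, n = 5 lines). No retention in these lists is read from the counts. Counting 3 as the limit, the counts of 0 allow shares of up to 75% of the early germ line, 23.1% of the imprinted and 27.3% of the somatic testis cytosines, so a share below the overall 13.3% was not detectable there.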

How the data were processed

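Per the labels' protocols, DNA of 5 AG-haESC lines and 1 round spermatid sample was cut with MspI, given methylated adapters, size-selected, bisulfite-treated and PCR-amplified. Bismark 0.12.2 and mm10 stand in the submitters' processing notes. Whether reads were trimmed or duplicates removed is not stated there, and duplicate reads would make counting intervals too narrow. The deposited files give counts of methylated and of unmethylated reads at each position. The authors' methylation level, a fraction, matched these counts within 1e-09.

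Files were joined by position with Python 3.11.15, numpy 2.4.6 and pandas 2.3.3. Positions under 10 reads in any library were left out. Genes and starts came from RefSeq tables of GRCm38.p6, and chromosome 18 was not used for starts. The cytosines, gene lists and comparisons were chosen with earlier results of these data known. Named genes were the 25 with most erased cytosines including 1 kb flanks (predicted names left out), those at the 10 largest runs, windows with at least 3 erased cytosines, and members of 17 lists. A named gene and a list are not reported here. Exact permutation tests over libraries (scipy 1.17.1) were used only at positions the rule did not use. Counting and distance steps were tested on simulated data. Lines sharing a name in the titles (OG3, AGH-2) form 2 pairs, which served as a replicate block. Alternatives were other read minimums, thresholds, windows and gaps, and leaving out each line.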

Additional observations from a re-analysis of the deposited data

How the results depend on the processing

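The number of erased cytosines was 2375 at a minimum of 100 reads and 9564 with lines under 20%, and stayed within 1.5 times of 6020 at the other minimums and thresholds. Leaving out 1 line gave 6979 to 8891 of them and a share of 15.4% to 19.6%, higher because fewer lines had to meet the rule. The share was 13.7% at a minimum of 5 reads and 12.3% at 100 reads. With 1 kb flanks 72.9% were in genes. The median local density was 1 at 100 reads, 1 in a window of 100 bp and 5 over cytosines seen in any library, and runs numbered 1881 at 100 reads, where fewer positions were measured. Of the 25 genes with most erased cytosines, 22 stayed within 1.5 times at a minimum of 20 reads, and Adat3 and Scamp4 had 3 each.

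The difference beside erased cytosines against the others was between -9.63 and -8.21 points with 1 line left out (exact permutation p = 0.125, the smallest 4 lines allow), and below 0 in every alternative run. The rule itself favoured that sign. Its values between 250 and 1000 bp and at neighbours methylated in round spermatids were added after seeing the data. A small difference between DKO and WT lines was also favoured, since the rule held every line under 10%. DKO minus WT was between -5.20 and 3.49 points, reversed at 3.49 without WT replicate 1. With the replicate block it was -0.334 points over 2 pairs, -2.90 for OG3 and 2.24 for AGH-2 (exact sign-flip permutation p = 1). Round spermatids are 1 library, and a count of 0 at 10 reads allows a level of up to 30%.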

Other observations

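Among the 2417 genes with 5 or more spermatid-methylated cytosines within 1 kb flanks, 8 were erased at every one of them and 1036 at none. The 8, named after their values were seen, were Adat3, Gm32438, Anp32a, Cic, Cyp2c53-ps, Ecm1, Gm36603 and Klrb1f. Cic, a transcriptional repressor downstream of receptor tyrosine kinases, and Anp32a, an acidic nuclear phosphoprotein, had 5 of 5 each. Of the miRNA hairpins with a spermatid-methylated cytosine, Mir149 had 1 of 1 erased, Mir702, Mir26a-1 and Mir6968 had 0 of 2 each, and Mir711, Mir5709 and Gm51279 had 0 of 1 each, where the share over all spermatid-methylated cytosines was 13.3%.

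At the opposite end, 168 spermatid-methylated cytosines had 50% or more in every line, 55.4% of them in genes and at a median of 37740 bp from a start, while 2142 were at 50% or more in 1 line and under 10% in the other lines.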
